A study of Mus musculus with 60 samples.

Results

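Poly-A RNA of whole heart was compared between 3 Ftsj1_DF and 3 WT mice, which are 6 of the 60 libraries of the series. All 55290 named entries of the deposited heart comparison of poly-A libraries were taken, with no gene left out by its result. Ftsj1 lies on the X chromosome and encodes an enzyme that methylates the ribose of nucleotides in the anticodon loop of several tRNAs, and it acts with partner proteins that guide it to its positions. Loss of this activity is known from human intellectual disability. The heart is built mainly of cardiomyocytes, which burn fatty acids in densely packed mitochondria, along with fibroblasts, endothelial cells, pericytes and resident immune cells.

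The Ftsj1_DF mice and their WT controls were all male, 4 months old, fed ad libitum and without treatment. Per the labels, 4 of the 6 mice were brothers of 1 litter (2 of each genotype), the other 2 were brothers of another litter (1 of each genotype), and all carried 1 batch label. How the Ftsj1 allele was made, and which cells lack it, is not stated in the labels. The whole organ was pulverised, so that fewer cells of a type and less RNA per cell cannot be told apart in any result below. Heart muscle genes were abundant: the deposited mean level over the 6 libraries, a normalised count, was 2306610 for the atrial and ventricular myosin heavy chain gene Myh6, 689193 for the ventricular light chain gene Myl2 and 660195 for the troponin gene Tnnt2. The defining genes Actc1, Tnnc1 and Pln were listed at 0. They are among 62 members of the gene lists that were listed at 0 and could not be tested.

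The deposited comparison holds 1 mean level, 1 log2 fold change (Ftsj1_DF minus WT), its standard error and p-values for each gene, and no value per library. Means are printed with 15 digits, and whole reads of each library could be recovered from them for genes of low level, since each mean is a sum of whole reads weighted by the depth of the 6 libraries. Of 1000 sampled genes with means from 1 to 20, 1000 had exactly 1 solution. For all 997 of them with a p the deposited fold change came back within 0.0001 on the log2 scale when refitted. Many genes below have higher means than this sample. Above a mean of 150 a search confined by the deposited fold change recovered 18 of 19 genes, so that its refit is no separate check. For means above 350, those of Ftsj1 (570) and Isg15 (513) among them, the recovery was not tested. Libraries are numbered below by depth within their genotype, WT_1 to WT_3 and DF_1 to DF_3. The genotype of each was read from the deposited fold changes of genes with reads in it alone, while its mouse is not known. Relative depths (DESeq2 size factors) were 5.27, 1.12 and 0.738 in WT and 1.07, 0.481 and 0.460 in Ftsj1_DF, so that the deepest library was 11.4 times as deep as the shallowest. The total count of a library is unknown. WT_1, the deepest, stood apart: 12 lung epithelial genes summed to a normalised count of 12408 in it and to 130 to 248 in the other 5 libraries, so that it held 93.8% of their sum.

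Ftsj1 itself was the gene from which the direction of the comparison was read, so that its lower level in Ftsj1_DF was set in advance. The size of its fall and its spread over libraries were not. Its normalised counts were 1064, 1075 and 971 in WT and 63.4, 143 and 104 in Ftsj1_DF, a mean of 1037 ± 57.3 (SD, n = 3) against 104 ± 39.9 (SD, n = 3). Groups were far apart, and the level in Ftsj1_DF hearts was 9.75% of WT in the authors' deposited table, with a log2 fold change of -3.36 ± 0.28 (standard error, as for all fold changes below). Without each library in turn its refitted log2 fold change lay between -3.67 and -3.07. Whether the remaining reads cover the altered part of the gene is not given. None of the other 10 tested ribose methyltransferases and partner genes changed by DESeq2's adjusted p, and none had an unadjusted p under 0.05. Of the 23 aminoacyl-tRNA synthetase genes and partners, which charge tRNAs with amino acids, 0 passed by DESeq2, 1 had an unadjusted p under 0.05, and their median log2 fold change in the authors' deposited table was 0.07.

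Of 21428 genes with an adjusted p in the authors' deposited table, 116 passed DESeq2's Benjamini-Hochberg adjusted p of 0.05, which is 0.541% of those tested. 45 genes rose (0.21%) and 71 fell (0.331%), Ftsj1 among them. Without adjustment there were 913 genes higher (4.26%) and 878 lower (4.1%) at p under 0.05 in the authors' deposited table. Unadjusted counts of the gene lists below are to be read beside these shares. Fold changes over all tested genes were centred near 0, with a median of -0.005 and quartiles of -0.19 and 0.18 on the log2 scale. Falls were larger than rises: 36 of the 71 fallen genes had a log2 fold change of at least 1 in size against 18 of the 45 risen genes. The median log2 fold change was -1.06 among fallen genes and 0.85 among risen genes in the authors' deposited table. Most called genes encode proteins (93 of 116), and 8 are immunoglobulin genes, all of which fell. At the edge of the threshold stood Mboat2 with an adjusted p of 0.0499 just inside and Ighv1-22 with 0.0513 just outside in the authors' deposited table.

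**Figure D1:**
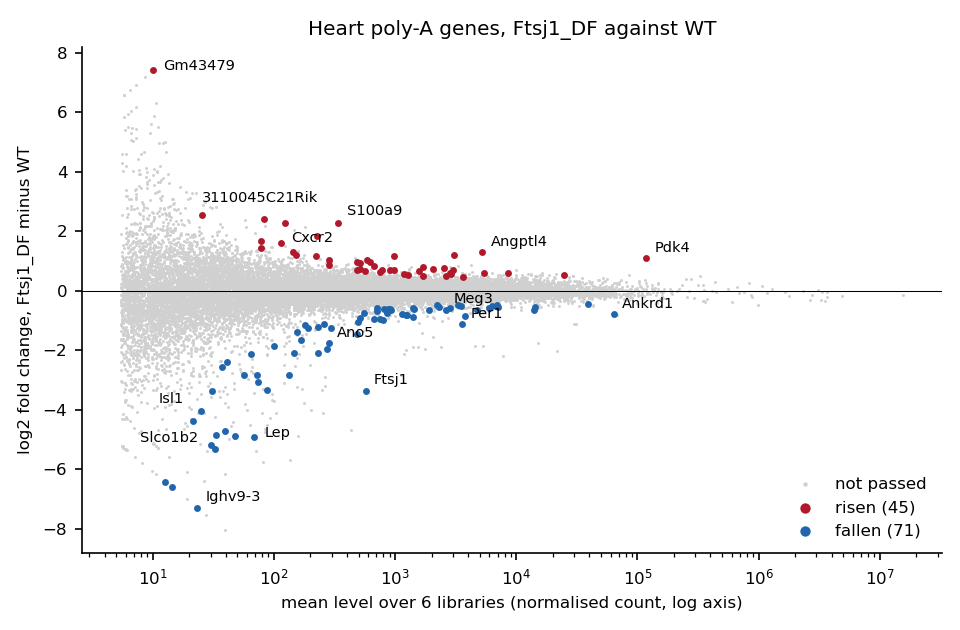
Each point is a heart gene with an adjusted p, placed by its mean normalised count over 6 libraries (log axis) and its deposited log2 fold change, Ftsj1_DF minus WT; 45 genes rose (red) and 71 fell (blue). The largest falls are at low mean levels and include Ighv9-3, Slco1b2 and Lep (-7.29, -5.31 and -4.92), while the abundant genes Pdk4 and Ankrd1 lie at 1.09 and -0.78.

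Whole reads were recovered for 48 of the 116 called genes, 15 risen and 33 fallen, mostly of low level. The values of WT and Ftsj1_DF libraries did not overlap for 15 of the 15 risen and 29 of the 33 fallen genes. The calls themselves favour this, so that no support is drawn from it, here or for the single genes below. The share over genes that were not called is not given. Bhmt, Pon1, Glb1l2 and Apol6 were the 4 fallen genes whose groups overlapped. The libraries were not alike: WT_2 was the highest of the WT libraries for 22 of the 33 fallen genes and WT_1 for 10, while WT_3 was the lowest for 31. Refits without 1 library, with the dispersion of the full fit held, kept 17 (without WT_2) to 42 (without WT_3) of the 48 genes at or under the largest p that the authors called (0.00027). A fit on fewer libraries has a larger standard error, so that some of this loss is by construction. No gene changed direction in any of these refits. The 11 genes that passed without each library were Ftsj1, Lep, Ano5, Itih2, Col6a5, Ighv9-3, S100a9, Cxcr2, H4c9, 2900052N01Rik and 3110045C21Rik.

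Of 16 tested marker genes of mature neutrophils, the short-lived phagocytes that patrol blood vessels, 4 rose in Ftsj1_DF hearts, 12 did not pass and none fell. S100a9, which encodes 1 chain of calprotectin, an antimicrobial protein stored in neutrophils, had normalised counts of 82.7, 97.3 and 176 in WT and 783, 540.0 and 360.5 in Ftsj1_DF. Every Ftsj1_DF library was above every WT library, and the deposited fold was 4.80 (log2 2.26 ± 0.37, DESeq2 adjusted p = 3.53e-06). Cxcr2, the receptor by which neutrophils follow chemokines, had 41.9, 49.1 and 36.6 in WT and 228, 137 and 252 in Ftsj1_DF. Its deposited fold was 4.82 (log2 2.27 ± 0.35, DESeq2 adjusted p = 9.83e-07).

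S100a8, the partner chain of calprotectin, had normalised counts of 43.3, 106 and 153 in WT and 401, 411 and 248 in Ftsj1_DF. Here too the groups did not overlap, with a log2 fold change of 1.83 ± 0.44 in the authors' deposited table (DESeq2 adjusted p = 0.0154). Its refitted value stayed between 1.45 and 2.26, and it no longer passed without WT_1, DF_1 or DF_2. Csf3r, which binds the growth factor that drives granulocyte production, rose by 0.68 ± 0.18 in the authors' deposited table (DESeq2 adjusted p = 0.0397), and its reads could not be settled. Other neutrophil genes gave no call: in the authors' deposited table Mmp9, a matrix-degrading protease, stood at 0.13 ± 0.25 and Lrg1, a secreted glycoprotein, at -0.00 ± 0.19. Summed over 13 marker genes with recovered reads, the normalised count ran from 462 to 659 in WT and from 1097 to 1858 in Ftsj1_DF. The called genes S100a9, S100a8 and Cxcr2 carried this difference: the other 10 markers summed to 294, 299.8 and 293 in WT and to 446, 523 and 237 in Ftsj1_DF, so that DF_3 lay below every WT library. The median log2 fold change of the 16 tested markers was 0.71 beside -0.005 over all genes.

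Genes of other blood cells were measured beside these. Among granule genes of immature neutrophils, Mpo had reads in 1 library alone and Elane had none in Ftsj1_DF. Ltf (lactoferrin) had a mean level of 347 but no p, as a count outlier lower in Ftsj1_DF. Of the 41 count outliers with recovered reads, 35 were highest in WT_1, the library with the high lung sum. The part of lung RNA in the Ltf value was not tested. Lcn2, the only tested granule gene at a mean level over 100, stood at -0.05 ± 0.51 in the authors' deposited table. Platelet genes had no call by DESeq2 among 10 tested, with 2 at an unadjusted p under 0.05 and a median log2 fold change of 0.61. Red cell genes had none among 17, with 5 higher and 2 lower at an unadjusted p under 0.05 and a median of 0.14, and the globin gene Hba-a1 stood at 0.41 ± 0.14 in the authors' deposited table (DESeq2 adjusted p = 0.209). T cell and natural killer markers had none among 18 (median 0.42, with 2 higher at an unadjusted p under 0.05), and macrophage and monocyte markers none among 22 (median 0.22). The chains of complement C1q, made by resident macrophages, were among the latter: C1qa, C1qb and C1qc stood at 0.40 ± 0.15, 0.46 ± 0.15 and 0.38 ± 0.12 in the authors' deposited table, with DESeq2 adjusted p from 0.137 to 0.335. The part of blood held in the organ in the neutrophil result was not tested.

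Interferon-stimulated genes, which interferons switch on against viruses, were mostly above 0 (37 of 40 tested, with a median log2 fold change of 0.33). Of these 40 tested, 3 rose, none fell and 37 did not pass. At an unadjusted p under 0.05, 18 were higher and 0 lower by DESeq2, where 4.26% of all genes were higher. Isg15, a ubiquitin-like protein attached to other proteins, had normalised counts of 332, 394 and 433 in WT and 670, 690 and 560 in Ftsj1_DF. Every Ftsj1_DF library was above every WT library, with a deposited log2 fold change of 0.74 ± 0.20 (DESeq2 adjusted p = 0.0378). Refitted values lay between 0.63 and 0.82, and the call was lost without WT_1, WT_2, DF_1 or DF_2. Irf7, a transcription factor that amplifies the interferon response, rose by 0.77 ± 0.20 and Oas1a, an enzyme that senses double-stranded RNA, by 0.71 ± 0.18 in the authors' deposited table (DESeq2 adjusted p = 0.0333 and 0.0216). Oas1a has near-identical neighbours, so that reads may be shared among them.

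Transcription of such genes is known to start through the interferon-stimulated response element, and its core was searched here on both strands as GAAA, any 2 bases, and GAAA again. RefSeq promoter windows of build GRCm38.p6, from 250 bases before to 50 after a gene's start, were searched. Among called genes the motif was found in 2 of 80 (2.5%, Isg15 and Oas1a), beside 3.93% of 13682 tested genes with a window. It was not found in the windows of Irf7 and Slfn4. Of 30 listed interferon genes with a window 18 held it (60%), but that list was drawn up from genes known to respond to interferon. Both matched windows are printed 5′ to 3′, since they belong to genes that rose, with the matched letters in capitals. Matches overlap in each (3 in Isg15 and 2 in Oas1a). The authors used another build, GRCm39, so these coordinates are not theirs.
Isg15 (chr4:156200769-156201068, minus strand): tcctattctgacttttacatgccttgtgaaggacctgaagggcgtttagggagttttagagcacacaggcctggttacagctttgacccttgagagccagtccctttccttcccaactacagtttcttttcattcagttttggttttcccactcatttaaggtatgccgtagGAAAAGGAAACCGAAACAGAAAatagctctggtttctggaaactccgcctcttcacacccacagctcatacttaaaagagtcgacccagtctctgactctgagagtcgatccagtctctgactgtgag
Oas1a (chr5:120907476-120907775, minus strand): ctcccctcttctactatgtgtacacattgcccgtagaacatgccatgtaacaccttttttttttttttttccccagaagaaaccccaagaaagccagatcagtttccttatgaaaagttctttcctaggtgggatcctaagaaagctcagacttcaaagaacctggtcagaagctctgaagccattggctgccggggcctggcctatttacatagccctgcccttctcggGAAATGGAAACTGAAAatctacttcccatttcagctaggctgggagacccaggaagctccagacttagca

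Schlafen genes, a family induced by interferon in blood cells, had 1 call among 7 tested. Slfn4, found in myeloid cells, had normalised counts of 81.8, 94.6 and 69.1 in WT and 194, 164 and 252 in Ftsj1_DF, with no overlap. Its deposited log2 fold change was 1.30 ± 0.31 (DESeq2 adjusted p = 0.0138), and it no longer passed without WT_3 or DF_3, when it lay at 1.21 or 1.13. All 7 family members had values above 0, with a median log2 fold change of 0.50 in the authors' deposited table. Slamf9, a surface receptor of the immunoglobulin superfamily on myeloid cells, rose by 0.93 ± 0.22 in the authors' deposited table (DESeq2 adjusted p = 0.0148).

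Fuel and lipid genes held some of the most abundant calls. Pdk4, a kinase that shuts off pyruvate dehydrogenase and so spares glucose, had an implied level of 75484 in WT and 160494 in Ftsj1_DF, a deposited fold of 2.13 (log2 1.09 ± 0.24, DESeq2 adjusted p = 0.00446). Implied levels are group means worked out from the deposited mean and fold change. Angptl4, an inhibitor of lipoprotein lipase that fatty acids induce, rose 2.48-fold in the authors' deposited table (log2 1.31 ± 0.25, DESeq2 adjusted p = 0.000441). Both are textbook targets of the fatty acid receptors called PPARs and of glucocorticoids. The 25 tested fasting and PPAR response genes held 2 risen and 1 fallen member (Per1) and had a median log2 fold change of -0.09, and the 20 glucocorticoid response genes held these 3 genes and had a median of -0.07.

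Scd4, a fatty acid desaturase of the heart, rose 2.29-fold in the authors' deposited table (log2 1.19 ± 0.20, DESeq2 adjusted p = 8.68e-06). Hsd17b7, an enzyme of the sterol pathway, rose 1.63-fold in the authors' deposited table (log2 0.70 ± 0.13, DESeq2 adjusted p = 0.000131). It was the only call among 24 cholesterol synthesis genes, whose median was -0.03. Abcd2, a peroxisomal transporter of very long fatty acids, fell to 60.0% of WT in the authors' deposited table (log2 -0.74 ± 0.17, DESeq2 adjusted p = 0.0144). Ogdhl, a relative of the oxoglutarate dehydrogenase subunit, Abat, which breaks down GABA, and Prkab2, a subunit of the energy sensor AMPK, also fell, by 0.64 ± 0.17, 0.86 ± 0.20 and 0.52 ± 0.14 on the log2 scale in the authors' deposited table.

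Mitochondrial fatty acid oxidation, glycolysis and the citric acid cycle gave no call. None of 24, 27 and 14 tested genes passed by DESeq2, with 3, 3 and 0 at an unadjusted p under 0.05 and medians of -0.11, 0.01 and 0.03. Fatty acid synthesis genes had none among 18, with 4 lower at an unadjusted p under 0.05. The desaturase gene Scd1, which fat cells express strongly, stood at -2.02 ± 0.92 in the authors' deposited table (DESeq2 adjusted p = 0.495). Oxidation of ketone bodies and branched-chain amino acids had none among 16, where Bckdha and Dbt, subunits of the branched-chain keto acid dehydrogenase, stood at -0.55 ± 0.17 and -0.50 ± 0.15 in the authors' deposited table (DESeq2 adjusted p = 0.124 for both).

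Per1, a repressor of the circadian clock that is itself driven by the clock activators, fell to 46.1% of WT. Its implied level was 4864 in WT and 2241 in Ftsj1_DF (log2 -1.12 ± 0.18 in the authors' deposited table, DESeq2 adjusted p = 9.83e-07). It was the only call among 11 tested clock repressors and clock outputs. Of these, 7 were lower and 1 higher at an unadjusted p under 0.05, beside 4.1% and 4.26% of all genes. The transcription factor genes Hlf and Tef, which carry the rhythm to liver and heart metabolism, stood at -0.66 ± 0.18 and -0.65 ± 0.19 in the authors' deposited table (DESeq2 adjusted p = 0.0524 and 0.0728). Their list had a median log2 fold change of -0.54. Clock activators and night-phase genes stood the other way, with 5 of 5 above 0, none passing by DESeq2, 2 at an unadjusted p under 0.05 and a median of 0.27; Arntl, which encodes the activator BMAL1, was at 0.56 ± 0.24 and Nfil3, a repressor of the same sites as Hlf and Tef, at 0.66 ± 0.28 in the authors' deposited table. The hour at which each mouse was killed is not stated in the labels.

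BMAL1 and its partner CLOCK bind the E-box CACGTG, a sequence that reads the same on both strands. It was found in the first of 2 RefSeq promoter windows of Per1 and not in the other. Over all tested genes 10.6% of 13682 had it in a window, and 20 of 80 called genes did (8 of 36 risen and 12 of 44 fallen), a count given with no test. Of 11 clock repressors and E-box driven outputs with a window, 5 held it. That list was drawn up from genes known to be driven through the E-box, so that no support is drawn from this count. Ciart, among these 5, had no reads listed in heart and could not be tested. The matched window of Per1 is shown because that gene had the smallest p of the list, with the E-box in capitals.
Per1 (chr11:69098699-69098998, plus strand): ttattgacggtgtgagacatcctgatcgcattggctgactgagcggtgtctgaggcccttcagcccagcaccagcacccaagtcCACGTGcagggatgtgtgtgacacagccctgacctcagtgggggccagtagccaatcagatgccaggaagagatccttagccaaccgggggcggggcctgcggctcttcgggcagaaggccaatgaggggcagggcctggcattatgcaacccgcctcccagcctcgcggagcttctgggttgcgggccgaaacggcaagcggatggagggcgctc

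Genes of the contractile apparatus changed little. Of 30 tested sarcomere genes 1 fell: Myot, a protein of the Z-disc, to 63.8% of WT in the authors' deposited table (log2 -0.65 ± 0.16, DESeq2 adjusted p = 0.0214). The list had a median of -0.08, with 6 lower and 0 higher at an unadjusted p under 0.05, Lmod2 (-0.38 ± 0.15) and Synpo2l (-0.51 ± 0.20) among them in the authors' deposited table. Myh6 stood at -0.02 ± 0.23 and Tnnt2 at 0.14 ± 0.16. Tuba8, a tubulin of muscle and testis, fell to 68.1% of WT in the authors' deposited table (log2 -0.55 ± 0.14, DESeq2 adjusted p = 0.0216).

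Ankrd1, a stretch-responsive protein of the sarcomere that rises in a strained heart, fell to 58.4% of WT, from an implied level of 80426 to 46946 (log2 -0.78 ± 0.18 in the authors' deposited table, DESeq2 adjusted p = 0.00924). It was the only call among 18 tested cardiac stress genes. The natriuretic peptide gene Nppa stood at -0.17 ± 0.19 and the slow myosin gene Myh7 at -1.11 ± 0.50 in the authors' deposited table (DESeq2 adjusted p = 0.928 and 0.494). Scn4b, an auxiliary subunit of the cardiac sodium channel, rose 1.53-fold in the authors' deposited table (log2 0.61 ± 0.15, DESeq2 adjusted p = 0.0258). It was the only call among 25 ion channel and gap junction genes, whose median was -0.11. No call was made among 20 calcium handling genes, 22 cardiac transcription factor genes and 15 atrial markers by DESeq2, with 1, 2 and 0 at an unadjusted p under 0.05.

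Isl1, a transcription factor of cardiac progenitors, the sinus node and neurons of the heart, had normalised counts of 40.4, 77.6 and 23.0 in WT and 3.73, 4.15 and 0 in Ftsj1_DF. Groups did not overlap, though the WT libraries differed widely among themselves, with a deposited log2 fold change of -4.06 ± 0.97 (DESeq2 adjusted p = 0.0154). It no longer passed without WT_2 (-3.51), DF_1 or DF_3. Of 13 tested sinus node and conduction markers it was the only call, and 4 were lower at an unadjusted p under 0.05. Schwann cell and neuronal markers had no call among 15 by DESeq2, with 4 lower at an unadjusted p under 0.05 and a median of -0.43. Their summed normalised count over 7 genes ran from 108 to 588 in WT and from 181 to 636 in Ftsj1_DF, and its part in the Isl1 result was not tested.

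Nuclear genes of the respiratory chain stood slightly above 0 and mitochondrial ones slightly below. Ndufs5, a small subunit of complex I, rose 1.58-fold in the authors' deposited table (log2 0.66 ± 0.18, DESeq2 adjusted p = 0.0424). It was the only call among 36 nuclear subunits of complex I, of which 33 were above 0, and the median was 0.28. None of 13 complex II and III, 14 complex IV and 17 ATP synthase nuclear genes passed by DESeq2, with 1, 0 and 4 at an unadjusted p under 0.05 and medians of 0.23, 0.28 and 0.28. The 13 messenger RNAs that mitochondria encode themselves were all below 0, with none passing by DESeq2, none at an unadjusted p under 0.05 and a median of -0.19. Mitochondrial transcripts took 30.6% of the summed level implied for WT and 27.9% for Ftsj1_DF.

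None of 77 cytosolic ribosomal protein genes passed by DESeq2, while 74 were above 0, and the median log2 fold change was 0.31. At an unadjusted p under 0.05, 18 were higher and 0 lower, where 4.26% of all genes were higher and 4.1% lower. Rps19 and Rps2, of the small subunit, stood at 0.55 ± 0.16 and 0.42 ± 0.12 in the authors' deposited table (DESeq2 adjusted p = 0.0610 and 0.0704). The 72 mitochondrial ribosomal protein genes had no call by DESeq2, 11 higher and 0 lower at an unadjusted p under 0.05, and a median of 0.20. Translation elongation and initiation factors had no call among 30 by DESeq2, 2 higher and 0 lower at an unadjusted p under 0.05, and a median of 0.06. Tufm, the elongation factor of mitochondrial translation, rose 1.52-fold and Snhg8, a host gene of a small nucleolar RNA, 1.95-fold in the authors' deposited table (DESeq2 adjusted p = 0.0170 and 0.0197). Ribosomal protein genes have many near-identical pseudogenes, so that the counting could split their reads.

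Gpx4, the selenoprotein that reduces lipid peroxides, rose 1.38-fold in the authors' deposited table (log2 0.47 ± 0.13, DESeq2 adjusted p = 0.0424), the only call among 20 oxidative stress genes. Integrated stress response and heat shock genes had no call among 21 each by DESeq2, with 3 and 0 at an unadjusted p under 0.05. Immediate early genes had none among 27 by DESeq2, with 1 higher and 5 lower at an unadjusted p under 0.05. Genes of the cell cycle had none among 35, though 11 were higher and 0 lower at an unadjusted p under 0.05. Over all genes these shares were 4.26% and 4.1%. The median of the cell cycle genes was 0.39. The proliferation marker Mki67 stood at 0.67 ± 0.19 and the topoisomerase gene Top2a at 0.79 ± 0.23 in the authors' deposited table (DESeq2 adjusted p = 0.0725 and 0.0809). Outside that list Kif23, a motor of cell division, had normalised counts of 212, 226 and 172 in WT and 404, 363 and 337 in Ftsj1_DF, with no overlap. Its deposited log2 fold change was 0.85 ± 0.22 (DESeq2 adjusted p = 0.0321), and it was lost without WT_1, WT_3, DF_1 or DF_2 (0.75 at the lowest). H4c9, a replication histone gene with near-identical copies, had 179, 192 and 193 against 371, 432 and 334 and rose by 1.02 ± 0.21 in the authors' deposited table (DESeq2 adjusted p = 0.00179).

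**Figure D2:**
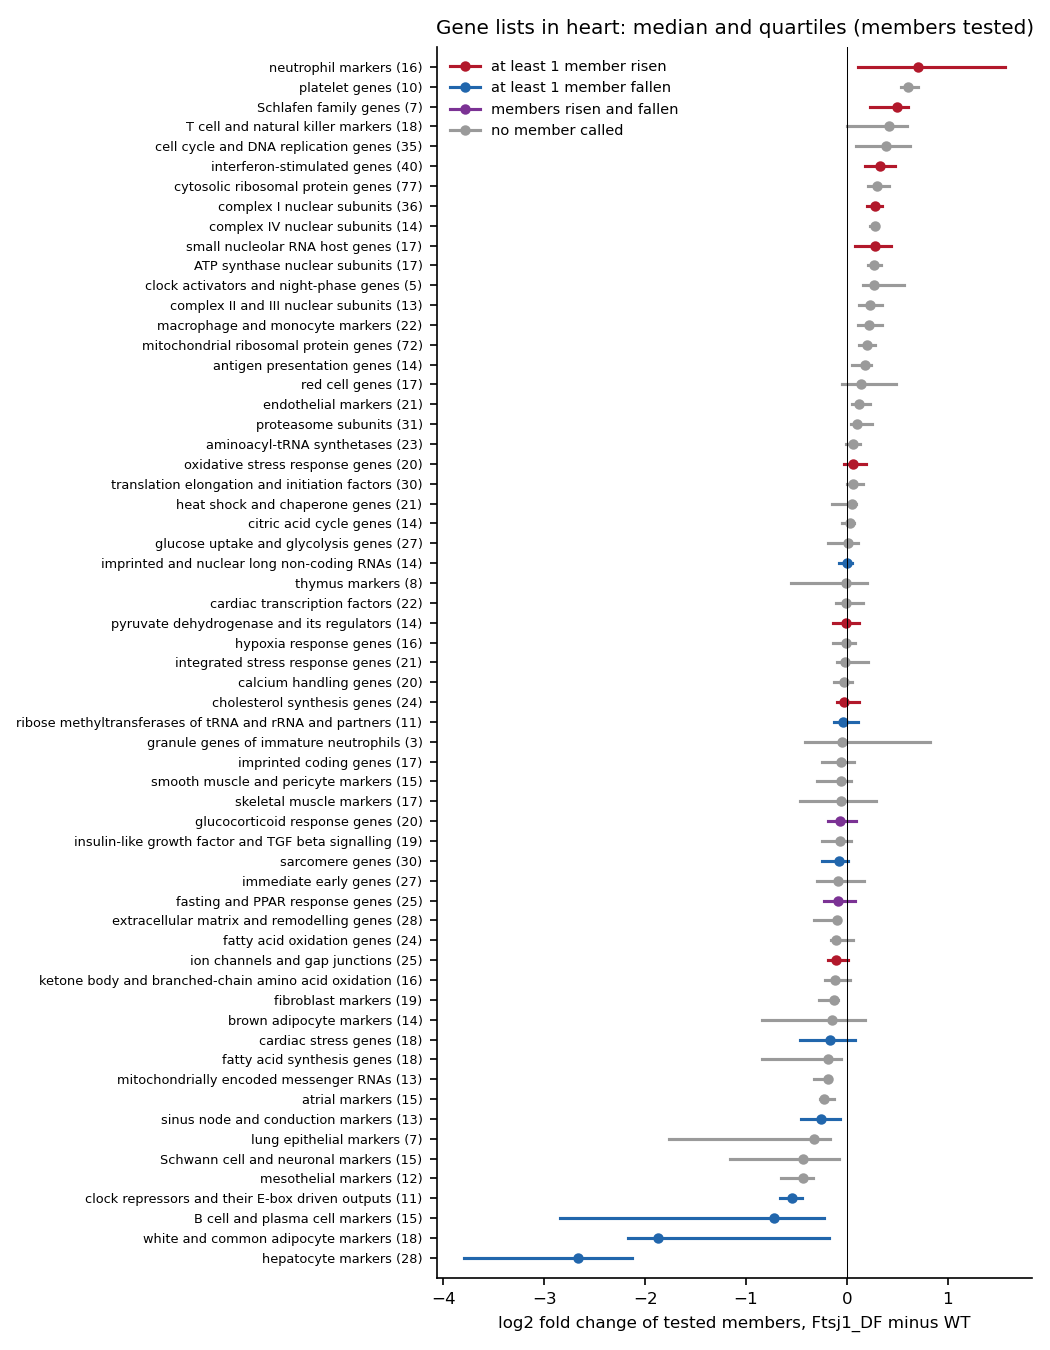
For each gene list with at least 3 tested members, the dot is the median deposited log2 fold change, Ftsj1_DF minus WT, and the bar spans the quartiles over its members; the number of members is in brackets and colour marks lists with called members. Neutrophil markers lie highest (median 0.71) and hepatocyte markers lowest (median -2.66).

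The fallen genes Ano5, Itih2 and Col6a5 were among the 11 that passed without each library. Ano5, a membrane protein of muscle whose loss causes muscular dystrophy in humans, had normalised counts of 384, 429 and 496 in WT and 104, 133 and 154 in Ftsj1_DF. All Ftsj1_DF libraries lay far under the lowest WT library, with a deposited log2 fold change of -1.76 ± 0.25 (DESeq2 adjusted p = 3.47e-08) and refitted values from -1.89 to -1.60. Itih2, a protein that binds hyaluronan in the matrix, had 276, 277 and 258 in WT and 99.8, 114 and 132 in Ftsj1_DF (log2 -1.24 ± 0.25 in the authors' deposited table, DESeq2 adjusted p = 0.000893). Col6a5, a chain of collagen VI, had 160, 195 and 114 in WT and 33.6, 41.5 and 56.5 in Ftsj1_DF (log2 -1.86 ± 0.40 in the authors' deposited table, DESeq2 adjusted p = 0.00267). Itih2 is also an abundant liver transcript, with a mean level of 250591 in the liver libraries of the series against 193 in heart; the part of liver RNA in its fall was not tested.

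Other fallen genes, picked by role after their values were seen, encode signals and regulators. Slit2, a guidance cue, fell by 0.77 ± 0.20 and its receptor Robo2 by 1.12 ± 0.28 (log2) in the authors' deposited table (DESeq2 adjusted p = 0.0292 and 0.0204). Robo2 had normalised counts of 386, 415 and 255 in WT and 146, 154 and 189 in Ftsj1_DF, and it was lost without WT_1, WT_2, DF_1 or DF_2, with refitted values from -1.30 to -0.99. Secreted regulators among the fallen genes were the Wnt antagonist Sfrp5 (-0.63 ± 0.16), the growth factor Gdf10 (-0.92 ± 0.24), the matrix signal Reln (-0.56 ± 0.15) and the neurotrophic factor Ndnf (-0.57 ± 0.14) in the authors' deposited table. The transcription factor genes Osr1 (-0.94 ± 0.23), Prrx1 (-0.49 ± 0.13), Sox6 (-0.49 ± 0.12) and Foxp2 (-0.67 ± 0.16) fell in the authors' deposited table. General markers did not pass: none of 19 fibroblast markers and none of 28 matrix and remodelling genes by DESeq2, with 1 each at an unadjusted p under 0.05 and medians of -0.12 and -0.10.

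Markers of the mesothelium, the sheet that covers the heart and lines the chest, gave no call by DESeq2, but all 12 tested were below 0, 4 of them at an unadjusted p under 0.05, with a median of -0.43. Muc16 and Upk3b, surface proteins of this sheet, stood at -1.01 ± 0.31 and -0.75 ± 0.27 in the authors' deposited table (DESeq2 adjusted p = 0.127 and 0.266). Endothelial markers had no call among 21 by DESeq2, with 2 higher at an unadjusted p under 0.05 and a median of 0.12.

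Genes of other tissues made up many of the deepest falls. Lep, the hormone leptin of fat cells, had normalised counts of 120, 238 and 40.7 in WT and 7.46, 4.15 and 0 in Ftsj1_DF. Groups did not overlap, with a deposited log2 fold change of -4.92 ± 0.85 (DESeq2 adjusted p = 2.27e-05) and refitted values from -5.98 to -4.21. White and common adipocyte markers held 2 fallen among 18 tested (Lep and the amino acid transporter Slc36a2, -0.58 ± 0.14 in the authors' deposited table), none risen, 9 lower at an unadjusted p under 0.05 and a median of -1.87. Adipoq and Plin1, which define fat cells, had mean levels of 1188 and 1530 and stood at -2.11 ± 1.01 and -1.89 ± 1.04 in the authors' deposited table (DESeq2 adjusted p = 0.557 and 0.662). The 5 brown adipocyte genes with recovered reads summed to 428, 394 and 29.8 in WT and to 108, 218 and 106 in Ftsj1_DF, so that these groups overlapped.

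Hepatocyte genes were present in some WT hearts. Slco1b2, a bile acid and drug uptake carrier of liver, had normalised counts of 47.1, 141 and 2.71 in WT and 0.933, 2.08 and 2.17 in Ftsj1_DF, and Bhmt, a liver enzyme of methionine metabolism, had 132, 145 and 2.71 against 4.66, 4.15 and 0. Both were high in WT_1 and WT_2, while WT_3 was at the level of the Ftsj1_DF hearts. Their deposited log2 fold changes were -5.31 ± 1.33 and -4.89 ± 1.18 (DESeq2 adjusted p = 0.0226 and 0.0170), and refits without WT_2 gave -3.99 and -4.43. Slco1b2 no longer passed without WT_2 or any 1 of the Ftsj1_DF libraries, and Bhmt without WT_1, WT_2, DF_1 or DF_3. All 28 tested hepatocyte markers were below 0, 2 passed, 12 had an unadjusted p under 0.05, and the median was -2.66. Over 20 of them with reads, the summed normalised count was 3049 in WT_1, 4244 in WT_2, 187 in WT_3 and 80.4 to 671 in Ftsj1_DF. Liver also makes the products of Serpina3b, Pon1 and Orm1, all of which fell. Serpina3b had no read in Ftsj1_DF and was at least 19.4-fold lower, with 3 reads over the group as the floor. Pon1 and Orm1 had deposited log2 fold changes of -2.84 ± 0.77 and -2.83 ± 0.77. Serpina3b no longer passed without WT_2 or DF_1, Pon1 without WT_1, WT_2, DF_1 or DF_2, and Orm1 without WT_1, WT_2, DF_1 or DF_3.

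Of 99 tested immunoglobulin genes, products of B cells and plasma cells, 8 fell (8.08%, beside 0.331% of all genes), none rose, and 96 were below 0, with a median log2 fold change of -2.59. Ighg3, the constant region of a G class antibody, had normalised counts of 72.1, 108 and 12.2 in WT and 3.73, 2.08 and 0 in Ftsj1_DF (log2 -4.85 ± 1.10 in the authors' deposited table, DESeq2 adjusted p = 0.00860). The variable segment Ighv9-3 had 31.1, 85.7 and 23.0 in WT and no read in Ftsj1_DF, which makes it at least 31.3-fold lower when 3 reads over the group are taken as the floor. It passed without each library, whereas Igkv4-72 (-2.76 without WT_2) and Ighv2-3 (58.5, 13.4 and 4.07 against no read) did not. Variable segments differ from mouse to mouse by clone and are alike in sequence, so that reads may be shared among them. B cell and plasma cell markers had 1 call among 15 tested, 14 of them below 0 and 6 lower at an unadjusted p under 0.05, with Cd79a, part of the B cell receptor, at -0.72 ± 0.24 in the authors' deposited table (DESeq2 adjusted p = 0.196).

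Lung and airway genes mostly carried no p, as DESeq2 does for genes in which 1 library dominates. Of all genes with reads in heart, 47 carried no p in the authors' deposited table, 45 lower in Ftsj1_DF and 2 higher. Not all are lung or airway genes: Rn7sk and immunoglobulin segments such as Igkv3-2, Igkv6-15 and Ighv5-15 are among them. Reads were recovered for 41 of the 47, 35 were highest in WT_1, and their median share in the highest library was 96.5%. The airway secretory genes Bpifa1 and Scgb1a1 had 7507 and 3506 normalised counts in WT_1 and at most 3.73 in any other library. Of 7 lung epithelial markers that could be tested, none passed by DESeq2 and 1 had an unadjusted p under 0.05. Exocrine pancreas genes were near the floor, with a sum of 73.3 to 84.8 over 11 genes in WT and 54.1 to 132 in Ftsj1_DF. The part that liver, fat, lung or plasma cell RNA has in the other falls was not tested; of the 33 fallen genes with reads, 31 were lowest among WT libraries in WT_3, where the hepatocyte sum was low too.

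**Figure D3:**
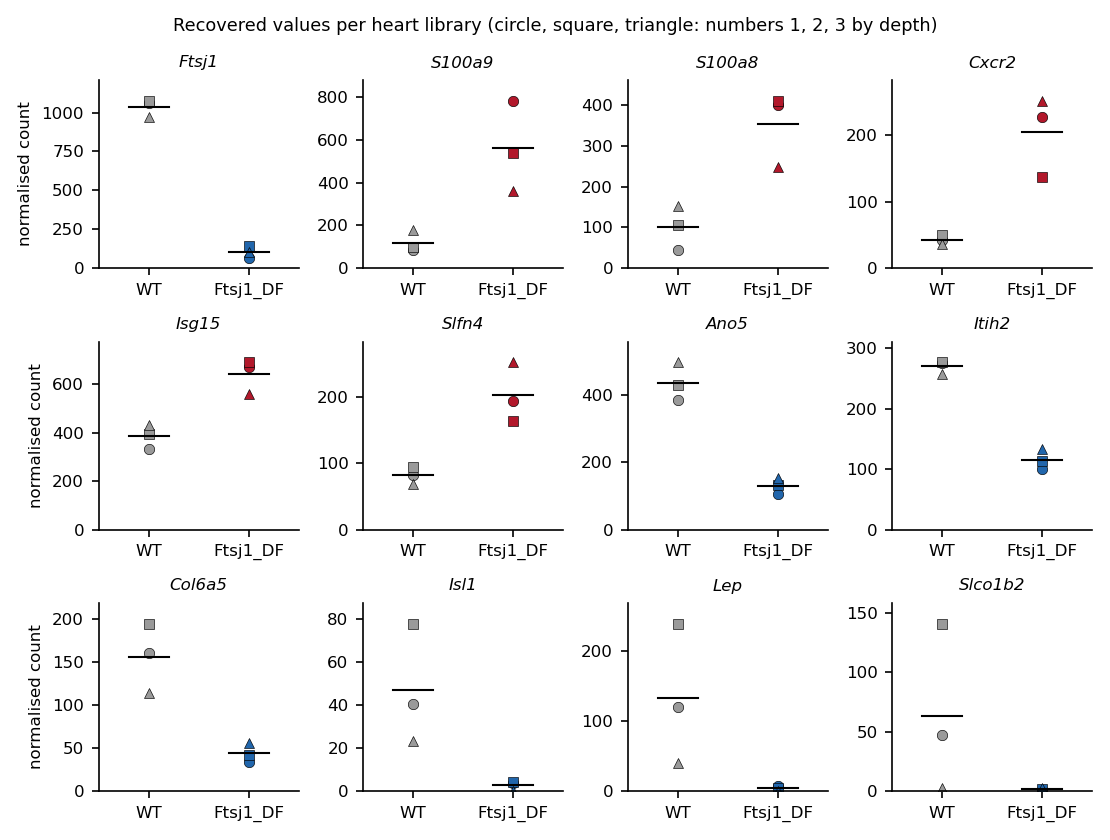
Each panel gives 1 gene; points are the recovered normalised counts of the 3 WT libraries (grey) and the 3 Ftsj1_DF libraries (red where the gene rose, blue where it fell), and lines are group means. Ftsj1, S100a9, Cxcr2, Ano5 and Itih2 separate the groups with compact WT values, whereas Isl1, Lep and Slco1b2 spread widely among the WT hearts and Slco1b2 in WT_3 (2.71) lies beside the Ftsj1_DF hearts.

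Long non-coding RNAs were also measured in libraries of the same 6 hearts made from total RNA depleted of ribosomal RNA, which do not depend on a poly-A tail. Of the 116 called genes 14 are in the authors' deposited lncRNA comparison of those libraries, and 13 of 14 had the same sign there. Calls there were made for 40 of 5871 lncRNAs (0.681%), and 4 of the 14 were among them by DESeq2's adjusted p, with 8 of 14 at an unadjusted p under 0.05 (7.66% of all lncRNAs). The libraries come from the same mice, so that they are no independent replicates.

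Gm12381 was at 1.19 ± 0.22 in poly-A and 0.85 ± 0.14 in depleted libraries in the authors' deposited tables. Gm48626 stood at 1.66 ± 0.42 and 1.63 ± 0.27 in the authors' deposited tables, and 2900052N01Rik at 1.61 ± 0.33 and 1.61 ± 0.37. The latter had normalised counts of 51.8, 61.6 and 55.6 in WT and 205, 183 and 124 in Ftsj1_DF in poly-A libraries, with no overlap. 9430091E24Rik fell in both, by 0.53 ± 0.13 and 0.45 ± 0.11 in the authors' deposited tables. Snhg8 stood at 0.96 ± 0.24 in poly-A and at 0.12 ± 0.20 in depleted libraries in the authors' deposited tables, the latter with a DESeq2 adjusted p of 0.892. Meg3, an imprinted lncRNA that muscle expresses, fell by 0.63 ± 0.12 in poly-A libraries (DESeq2 adjusted p = 0.000418) and stood at -0.41 ± 0.14 in depleted ones (DESeq2 adjusted p = 0.138) in the authors' deposited tables.

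3110045C21Rik was the only one of the 14 to turn sign. Its normalised counts in poly-A libraries were 35.5, 29.4 and 10.8 in WT and 104, 158 and 163 in Ftsj1_DF, with a deposited log2 fold change of 2.42 ± 0.48 (DESeq2 adjusted p = 0.000716). In depleted libraries the authors' deposited table had -0.23 ± 0.17. The difference of 2.65 ± 0.51 passed a Benjamini-Hochberg adjusted p of 0.05 over 2101 lncRNAs tested in both kinds (adjusted p = 0.000374), the only 1 to do so (0.0476%). Its neighbours in the genome were not analysed here, and the strand setting of the counting is not stated in the labels.

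**Figure D4:**
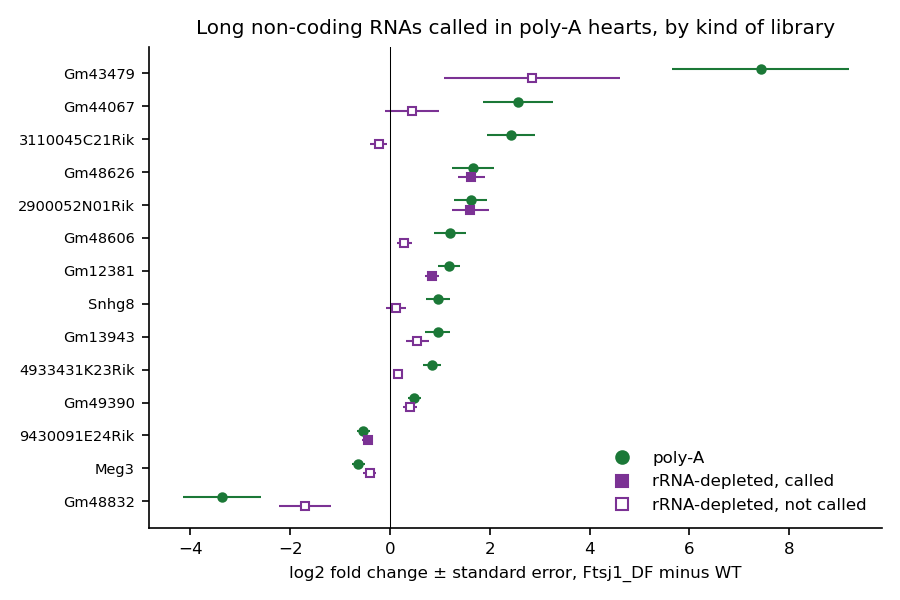
Deposited log2 fold changes, Ftsj1_DF minus WT, with standard errors for the 14 long non-coding RNAs called in poly-A hearts, in poly-A libraries (green circles) and rRNA-depleted libraries (purple squares, filled where called). Gm48626 and 2900052N01Rik lie together in both kinds, while 3110045C21Rik is at 2.42 in one and at -0.23 in the other.

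The heart calls were set against brain, kidney, liver and spleen of the same mice. Besides Ftsj1, 13 of the genes called in heart were called in at least 1 other organ by the authors' deposited tables, 8 in kidney, 7 in liver and 0 in brain and spleen, where 0.987%, 2.29%, 0.0607% and 0.0741% of all tested genes passed. Calls were made in heart alone for 102 genes, and being called in 1 organ does not by itself show a difference. S100a8 and S100a9 were called in heart, kidney and liver, with log2 fold changes in the authors' deposited tables of 1.83, 1.24 and 0.99 and of 2.26, 1.17 and 0.88. Pdk4 rose by 1.09 and Angptl4 by 0.73 in kidney in the authors' deposited table.

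Differences between organs were tested gene by gene as the difference of deposited fold changes over its standard error, with Benjamini-Hochberg adjustment over all genes at a mean level of 10 or more in both organs. Heart differed from brain in 19 of 19258 genes (0.0987%), from kidney in 30 of 19455 (0.154%), from liver in 60 of 18052 (0.332%) and from spleen in 9 of 18833 (0.0478%). These counts and their order depend on the scaling of the statistic: divided by its robust SD over genes, it called 65 genes for kidney, 16 for liver and 66 for spleen. Organs of 1 mouse are not independent, and their covariance is unknown, so that these p-values are approximate. Of the 116 heart calls 44 differed from at least 1 organ: 29 from 1, 11 from 2, 4 from 3 and 0 from all 4. The same heart fold change made the call and enters this test, which favours these counts, so that no support is drawn from them. Neither the matching share over all genes nor the counts under the other scaling are given.

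Ano5 was at -1.76 ± 0.25 in heart and at -0.03 ± 0.13 in brain and 0.21 ± 0.12 in kidney in the authors' deposited tables (adjusted p of the difference 2.57e-05 and 1.39e-08). Per1 differed from brain, where it stood at 0.05 ± 0.13 in the authors' deposited table (adjusted p = 0.000645), while it was called in kidney too at -0.57. 3110045C21Rik differed from kidney, liver and spleen, where the authors' deposited tables gave -0.23 ± 0.11, -0.57 ± 0.25 and -0.21 ± 0.35. Scd4 differed from the same 3 organs, with -0.15 ± 0.25, -0.73 ± 0.28 and -0.32 ± 0.30 there in the authors' deposited tables. Ighv9-3 differed from them as well and stood at 0.26 ± 0.38, 0.67 ± 0.56 and 0.93 ± 0.42 there in the authors' deposited tables.

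Lrrc15, a membrane protein with leucine-rich repeats, was called in opposite directions in heart (0.58 ± 0.15) and kidney (-0.60 ± 0.12) in the authors' deposited tables (adjusted p of the difference 4.89e-06). Abcd2 did so in heart (-0.74 ± 0.17) and liver (1.30 ± 0.27) in the authors' deposited tables (adjusted p of the difference 1.54e-06), and Aldh1a7 in heart (-1.65 ± 0.44) and kidney (0.67 ± 0.10) in the authors' deposited tables (adjusted p of the difference 0.000718). Aldh1a7, an aldehyde dehydrogenase, had normalised counts of 289, 333 and 133 in WT and 54.1, 118 and 71.7 in Ftsj1_DF hearts, and its heart call was lost without WT_1, WT_2, DF_1 or DF_3.

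**Figure D5:**
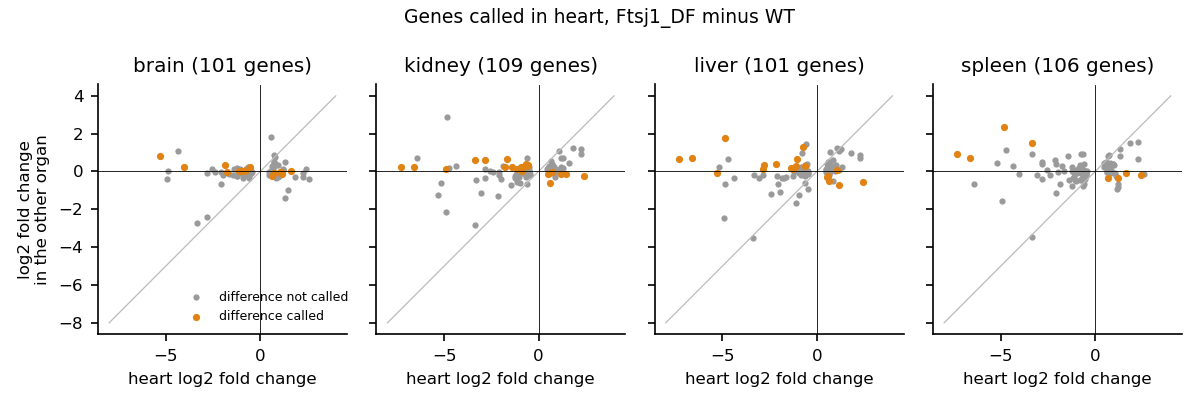
Genes called in heart with a mean level of 10 or more in both organs, by deposited log2 fold change in heart (horizontal) and in brain, kidney, liver or spleen (vertical); orange marks genes whose difference passed and the grey diagonal marks equal change. Most points lie near 0 on the vertical axis, and Ftsj1 is the low point near the diagonal in all 4 panels.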

How the data were processed

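Poly-A RNA of 3 Ftsj1_DF and 3 WT hearts was sequenced. Per the submitters' processing notes, reads were counted with featureCounts of Subread 2.0.3 on GRCm39 and compared with DESeq2; the aligner, the strand setting and the treatment of reads with several matches are not stated in those notes. The deposited table holds, from the authors, a mean signal per gene (counts divided by size factors), a log2 fold change with its standard error, a Wald score, and a p-value with its Benjamini-Hochberg adjusted p-value. Its direction is Ftsj1_DF minus WT, read from Ftsj1. Genes with an adjusted p under 0.05 were called. 1 entry with no name (5.44e-06% of the summed level) was left out.

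From these values group means were derived from each mean and fold change. Whole reads per library were recovered from the digits of the means, for genes of low level only. Above a mean of 150 the deposited fold change was used in the search too. With values per library missing for the rest, p-values rest on the authors' fit to 3 mice of each genotype. No litter term is stated for that fit. The floor of 3 reads over a group covers counting error only. Organs and library kinds were compared by the difference of fold changes over its standard error. For organs the step was tested on simulated data, drawn as independent with the deposited standard errors. That test cannot show how the step behaves under the unknown covariance between organs of 1 mouse. Python 3.11.15, numpy 2.4.6, pandas 2.3.3, scipy 1.17.1, numba 0.67.0 and matplotlib 3.10.9 were used.

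The members and gene lists were chosen with earlier results of these data known. Named genes were Ftsj1, called genes with the largest changes, smallest adjusted p or highest level, called list members, up to 3 members by p of lists with no call, the largest differences between organs, genes called in several organs, and count outliers of other tissues. Some genes that this rule names are not reported here. Other called genes were named by role after their values were seen. Alternatives were other thresholds, filters, centrings and the removal of single libraries.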

Additional observations from a re-analysis of the deposited data

Results flagged for a closer look

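Differences between heart and another organ that passed the test of the difference itself are given here as heart minus the other organ, in log2 fold change of Ftsj1_DF over WT. For each organ they are taken from the 3 genes with the largest statistic in each direction.

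A difference can come from a change in the other organ alone. Values in both organs are given for genes not called in heart, except for Gadd45g, which was not called in heart either. Against brain, the effect in heart was lower for Ano5 (-1.73), Per1 (-1.17) and Igsf1 (-0.79), and higher for Armcx4 (0.80), Gadd45g (1.12) and Slc12a5 (1.08).

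Against kidney it was lower for Ano5 (-1.97) and Aldh1a7 (-2.32), and higher for Gm49692 (2.95), Lrrc15 (1.18) and 3110045C21Rik (2.66). The Gm49692 value was 0.61 in heart (adjusted p = 0.681, not passed) and -2.34 in kidney, where it was called.

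Against liver it was lower for Abcd2 (-2.04), Ighg3 (-6.62) and Ndrg1 (-1.41), and higher for Nat8f7 (4.59), Fbxo40 (1.65) and Scd4 (1.93). In the authors' deposited tables Ndrg1 was at -0.12 in heart and 1.29 in liver, Nat8f7 at 1.48 and -3.12, and Fbxo40 at 0.02 and -1.63; these 3 were called in liver and not in heart, as were 29 of the 60 genes that differed from liver. Against spleen it was lower for the immunoglobulin genes Ighv9-3 (-8.22), Igkv14-126 (-4.82) and Ighg3 (-7.18), and higher for Hsd17b7 (1.04), 2900052N01Rik (1.71) and 3110045C21Rik (2.63).

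Within heart, 3110045C21Rik differed between poly-A and rRNA-depleted libraries by 2.65.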

How the results depend on the processing

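At an adjusted p of 0.1 there were 175 calls, 74 of them risen, and at 0.01 there were 27 (15 risen, 12 fallen). Adjustment over all genes with a p left 47 fallen genes. With a log2 fold change of at least 1 there were 54 (18 risen, 36 fallen). The other filters and the other centring kept these counts within 1.5 times. With the difference statistic divided by its robust SD, heart differed from kidney in 65, from liver in 16 and from spleen in 66 genes, and at a mean level of 100 or more from spleen in 2. Leaving out single libraries kept 17 to 42 of the 48 called genes with recovered reads; this could be done for those genes only. No call changed direction in any alternative. Of the recomputed values of single genes and lists, 136 were refits of single genes that no longer passed. The other 275 mix refits that still passed with list medians. A list median has no threshold and was counted as kept when it moved by less than its members' median standard error. The median of 3 lists changed sign at a mean level of 100 or more, each within 0.1 of 0 on the log2 scale. No paired analysis was possible because the recovered libraries cannot be matched to mice or litters. The share of Ftsj1 from recovered counts and the looser threshold for depleted lncRNAs were chosen after seeing the data. Depth is unknown in total and limits low genes most in DF_2 and DF_3.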
